A study of Mus musculus with 9 samples.

Results

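The genes described here are 9 Toll-like receptor genes, Tlr1, Tlr2, Tlr3, Tlr4, Tlr6, Tlr7, Tlr8, Tlr9 and Tlr13, together with Cd14, which codes for a co-receptor of several of them. They were chosen by name, as probe sets whose platform annotation gives that 1 symbol. All 10 were found among the 19938 genes tested, each with 1 probe set, and dim genes were kept. RNA came from whole ear skin of female C57BL/6 mice aged 7 to 9 weeks, and was measured on Affymetrix Mouse Gene 1.0 ST arrays in 3 groups of 3 arrays. Anisomycin, an antibiotic that blocks protein synthesis and activates stress kinases, was painted on once a day for 5 days, 10 µl per side, dissolved at 2 mg/ml in ethanol of 99.5%. Imiquimod, a small-molecule agonist of Toll-like receptor 7, was spread on daily over the same time as 10 mg of a 5% cream. The remaining group is labelled vehicle. Neither the vehicle nor the days of its use are named in the labels, so effects of ethanol or of the cream base cannot be told apart from those of the drugs. No genetic change is named for any group.

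Toll-like receptors bind conserved microbial structures and switch on NF-kB and interferon regulatory factors. The surface receptors pair up: Tlr2 with Tlr1 or with Tlr6 for bacterial lipoproteins, and Tlr4 with itself and its partner Ly96 (MD-2) for lipopolysaccharide, which Cd14 hands over. The others sit in endosomes and read nucleic acids, and need the chaperone Unc93b1 to get there. In skin the receptors are made by macrophages, dendritic cells and neutrophils, and some by keratinocytes.

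Values are log2 expression values as deposited, so a difference of 1 between groups is a 2-fold change. The scale differs from probe set to probe set, and levels are compared between groups for the same gene only. A gene was called higher or lower at an adjusted p under 0.05 in limma, with adjustment over all 19938 genes. In whole skin, a change in the number of cells that carry a transcript and a change in transcript per cell cannot be told apart. Array medians lay between 6.01 and 6.10 and followed the groups, at 6.08 to 6.10 in vehicle arrays and 6.01 to 6.03 in treated arrays. Correlations between arrays of a group were 0.993 to 0.998 across genes. The keratinocyte genes Krt5 and Krt14 had means of 12.16 to 12.96 in each group, on a table that reaches 13.97. These levels check the tissue only, since keratinocyte markers moved. Of 9 such markers 3 were called higher and 3 lower with anisomycin (45.6% of all genes called), and 4 higher and none lower with imiquimod (42.7%). Krt2 was at -1.78 and Dsg3 at 2.25 with anisomycin, for example, and Krt1 at 2.34 with imiquimod, as log2 differences from vehicle. The median log2 difference over all genes tested was -0.01 for anisomycin and -0.03 for imiquimod against vehicle.

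Against vehicle, 9 of the 10 genes were called higher and 1 lower with anisomycin, where 45.6% of all genes were called, 22.3% higher and 23.3% lower. Of the genes called with anisomycin 49% were higher, or 37.1% with arrays centred on 1000 stable genes, and with imiquimod 47.7%, or 36.4%. With imiquimod 7 were called higher, 1 lower and 2 were not called, where 42.7% of all genes were called, 20.4% higher and 22.4% lower. The arrays of treated and vehicle ears did not overlap for any of the 10 genes, with either treatment, as for 51.3% of all genes with anisomycin and 51.8% with imiquimod. At least 2-fold rises were seen for 7 genes with anisomycin and 3 with imiquimod, against 5.1% and 4.26% of all genes. The median log2 difference of the 10 genes was 1.25 with anisomycin and 0.69 with imiquimod, both computed against the same vehicle arrays. In the direct comparison 5 genes were higher with anisomycin than with imiquimod and none lower, where 20.4% of all genes were called, 10.8% higher and 9.59% lower.

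**Figure D1:**
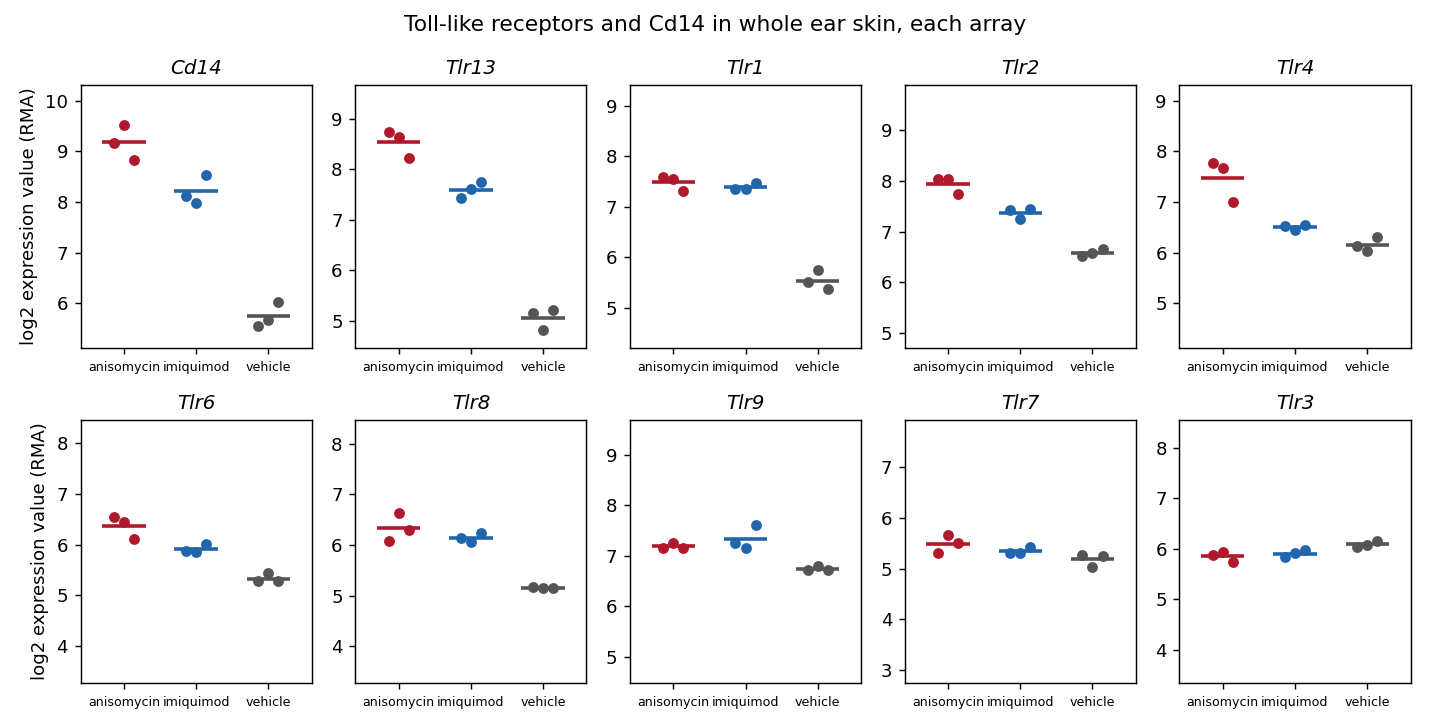
Log2 expression value of each gene (vertical axis, the same span of values in every panel) in each array of the anisomycin, imiquimod and vehicle groups (points, n = 3), with the group mean as a bar. Cd14 and Tlr13 show the widest gap between treated and vehicle ears, while Tlr3 and Tlr7 lie nearly level across the groups.

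Cd14 and Tlr13 had the largest rises of the 10 genes with both treatments. Cd14 codes for the co-receptor that binds lipopolysaccharide. It had values of 9.17, 9.53 and 8.83 in anisomycin ears and 8.12, 7.98 and 8.54 in imiquimod ears, against 5.56, 5.67 and 6.02 in vehicle ears. The 3 groups did not overlap, with anisomycin highest and vehicle lowest. Cd14 rose 10.8-fold with anisomycin (log2 difference 3.43, SE 0.20, limma adjusted p = 1.56e-06) and 5.52-fold with imiquimod (2.46, SE 0.20, adjusted p = 1.42e-05).

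Tlr13 senses bacterial ribosomal RNA in the endosomes of mouse phagocytes and has no counterpart in humans. Its values were 8.74, 8.63 and 8.23 with anisomycin and 7.44, 7.60 and 7.74 with imiquimod, against 5.16, 4.82 and 5.22 with vehicle. As for Cd14, no array of one group reached into another. The rise was 11-fold with anisomycin (log2 difference 3.46, SE 0.15, limma adjusted p = 2.47e-07) and 5.76-fold with imiquimod (2.53, SE 0.15, adjusted p = 2.3e-06).

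The surface receptors for lipoproteins also rose. Tlr1 had 7.58, 7.56 and 7.32 in anisomycin ears and 7.36, 7.35 and 7.48 in imiquimod ears, against 5.51, 5.75 and 5.37 in vehicle ears. Treated arrays lay far above vehicle arrays, and those of the 2 treatments overlapped. The log2 difference was 1.94 with anisomycin (SE 0.10, limma adjusted p = 9.65e-07) and 1.85 with imiquimod (SE 0.10, adjusted p = 1.86e-06).

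Tlr2, the shared partner of Tlr1 and Tlr6, had 8.05, 8.04 and 7.74 with anisomycin and 7.42, 7.25 and 7.44 with imiquimod, against 6.52, 6.57 and 6.66 with vehicle. The groups stood in 3 separate steps. Tlr2 rose by 1.36 with anisomycin (SE 0.09, limma adjusted p = 3.39e-06) and by 0.78 with imiquimod (SE 0.09, adjusted p = 0.000115). Tlr6 had 6.54, 6.44 and 6.10 with anisomycin and 5.88, 5.86 and 6.01 with imiquimod, against 5.27, 5.43 and 5.27 with vehicle. It showed the same 3 steps, at 1.04 with anisomycin (SE 0.11, adjusted p = 4.26e-05) and 0.60 with imiquimod (SE 0.11, adjusted p = 0.00157).

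Tlr1 and Tlr6 lie next to each other on chromosome 5, with no gene between them in the RefSeq mouse table. Within each array, Tlr1 minus Tlr6 was 1.04, 1.12 and 1.22 in anisomycin ears and 1.48, 1.49 and 1.47 in imiquimod ears, against 0.24, 0.32 and 0.10 in vehicle ears. The change of this difference is interpretable, its level is not, since the probe sets differ. Relative to vehicle the difference was larger by 0.91 with anisomycin and by 1.26 with imiquimod, and anisomycin minus imiquimod was -0.35, with no overlap of arrays in any of the 3 comparisons. An exact two-sided permutation test gave p = 0.1 for each, the smallest that 3 against 3 arrays allow, and 0.12 after Benjamini-Hochberg adjustment over the 12 such tests made.

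Tlr4, the lipopolysaccharide receptor, had values of 7.77, 7.67 and 7.0 in anisomycin ears and 6.52, 6.45 and 6.54 in imiquimod ears, against 6.12, 6.03 and 6.30 in vehicle ears. All 3 anisomycin arrays lay above the rest, with replicate 3 the lowest of them, and the imiquimod arrays lay just above vehicle without overlap. Tlr4 rose by 1.33 with anisomycin (SE 0.17, limma adjusted p = 0.000185). With imiquimod the difference was 0.35 (95% interval -0.04 to 0.74) and was not called (adjusted p = 0.143). The anisomycin arrays enter the shared spread of the fit. The SD of Tlr4 was 0.418 in the anisomycin group, 0.047 in the imiquimod group and 0.138 in the vehicle group, and imiquimod against vehicle was called when only these groups were fitted (adjusted p = 0.0103) or without anisomycin replicate 3 (0.0056).

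Ly96, whose product completes the Tlr4 receptor, was higher in both treated groups, by 0.77 with anisomycin (limma adjusted p = 0.01) and 0.88 with imiquimod (0.00539), and its treatments were not called apart (-0.11, adjusted p = 0.764). Within arrays, Tlr4 minus Ly96 was -1.17, -1.27 and -1.67 with anisomycin and -2.35, -2.44 and -2.59 with imiquimod, against -2.33, -1.53 and -1.94 with vehicle. The arrays of the treatments did not overlap, with a difference of 1.09 (exact permutation p = 0.1, 0.12 adjusted). Anisomycin and vehicle arrays overlapped (0.56, exact permutation p = 0.2, 0.218 adjusted), and imiquimod arrays lay below vehicle arrays (-0.53, exact permutation p = 0.1, 0.12 adjusted). Cd14 minus Ly96 was 2.66 higher with anisomycin and 1.58 higher with imiquimod than with vehicle, and 1.08 higher with anisomycin than with imiquimod, without overlap (exact permutation p = 0.1, 0.12 adjusted, for each).

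Among the other endosomal receptors Tlr8 and Tlr9 rose with both treatments. Tlr8 lies next to Tlr7 on the X chromosome and in humans senses RNA fragments, while its role in mice is less clear. Its values were 6.07, 6.64 and 6.29 with anisomycin and 6.13, 6.05 and 6.23 with imiquimod, against 5.16, 5.15 and 5.15 with vehicle. The vehicle arrays were almost identical, and every treated array stood above them. Tlr8 rose by 1.18 with anisomycin (SE 0.12, limma adjusted p = 4.44e-05) and by 0.98 with imiquimod (SE 0.12, adjusted p = 0.000172).

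Tlr9 senses unmethylated CpG DNA. It had 7.16, 7.25 and 7.16 with anisomycin and 7.26, 7.16 and 7.60 with imiquimod, against 6.71, 6.79 and 6.71 with vehicle. Treated arrays again lay above vehicle arrays. The rise was 0.45 with anisomycin (SE 0.10, limma adjusted p = 0.00462) and 0.60 with imiquimod (SE 0.10, adjusted p = 0.000971).

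Tlr7, the receptor that imiquimod itself engages, had 5.32, 5.66 and 5.50 in anisomycin ears and 5.31, 5.32 and 5.43 in imiquimod ears, against 5.28, 5.03 and 5.25 in vehicle ears. The lowest array of each treatment lay just above the highest vehicle array. With imiquimod the log2 difference was 0.16 (95% interval -0.05 to 0.38) and was not called (limma adjusted p = 0.216). With anisomycin it was 0.31 (95% interval 0.09 to 0.52, adjusted p = 0.0265), a call that ended without anisomycin replicate 2 (0.22, adjusted p = 0.1), anisomycin replicate 3 (0.30, 0.061) or vehicle replicate 2 (0.23, 0.0864), with arrays centred on stable genes (0.22, 0.0557), or when only these groups were fitted (0.31, 0.0618). Tlr8 minus Tlr7 within arrays was 0.87 higher with anisomycin and 0.82 higher with imiquimod than with vehicle, without overlap (exact permutation p = 0.1, 0.12 adjusted, for each).

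Tlr3, which senses double-stranded RNA, was the only member with lower values in treated ears. It had 5.88, 5.94 and 5.74 with anisomycin and 5.83, 5.91 and 5.97 with imiquimod, against 6.04, 6.08 and 6.16 with vehicle. The vehicle arrays were all above the treated ones, by a narrow margin. The difference was -0.24 with anisomycin (SE 0.07, limma adjusted p = 0.0164) and -0.19 with imiquimod (SE 0.07, adjusted p = 0.0462). Both calls sit near the threshold. With arrays centred on their medians they became -0.19 (0.0519) with anisomycin and -0.15 (0.124) with imiquimod. With arrays centred on 1000 stable genes they became -0.32 (0.00357) with anisomycin and -0.26 (0.0111) with imiquimod. The anisomycin call also ended with quantile normalization repeated (-0.18, 0.0636) or array weights (-0.17, 0.0513). So it did without anisomycin replicate 3 (-0.18, 0.0538) or vehicle replicate 3 (-0.20, 0.0556). The imiquimod call ended without any 1 of 7 arrays, namely anisomycin replicate 1 and each imiquimod and vehicle array, with values of -0.23 to -0.15. It ended too with quantile normalization repeated (-0.13, 0.197). At -0.19 it was also lost with a trended robust prior (0.0555), all rows tested (0.0655), array weights (0.0581) or a replicate block (0.075).

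**Figure D2:**
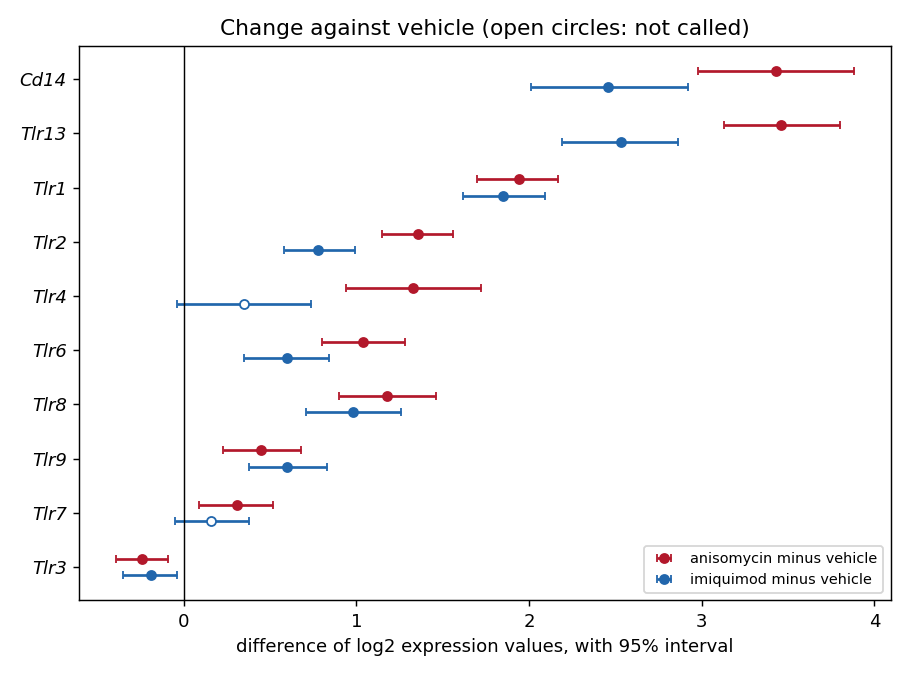
Difference of log2 expression values (horizontal axis) for anisomycin minus vehicle (red) and imiquimod minus vehicle (blue), with 95% intervals from limma over n = 3 arrays per group, and open circles where the adjusted p was 0.05 or more. The anisomycin point lies to the right for Cd14, Tlr13, Tlr2, Tlr4 and Tlr6, the pairs nearly coincide for Tlr1, and both Tlr3 points lie below 0.

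Set directly against each other, the treatments differed for Cd14, Tlr13 and the surface receptors other than Tlr1. With anisomycin relative to imiquimod, Tlr4 was higher by 0.98 (95% interval 0.59 to 1.37, limma adjusted p = 0.00482), Cd14 by 0.96 (0.51 to 1.41, 0.00989), Tlr13 by 0.94 (0.61 to 1.27, 0.00289), Tlr2 by 0.57 (0.37 to 0.78, 0.0031) and Tlr6 by 0.44 (0.20 to 0.69, 0.0194). The arrays of the treatments did not overlap for these 5 genes, where 39.3% of all genes showed no overlap. The Tlr6 call ended without anisomycin replicate 1 or 2 or imiquimod replicate 1 or 2, at adjusted p values of 0.0654 to 0.075.

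No difference between the treatments was called for the other 5 genes. Their intervals were -0.15 to 0.32 for Tlr1, -0.08 to 0.47 for Tlr8, -0.07 to 0.36 for Tlr7, -0.20 to 0.11 for Tlr3 and -0.38 to 0.08 for Tlr9. Differences up to these bounds are not excluded by the data. With array weights Tlr8 (0.45, limma adjusted p = 0.00354) and Tlr7 (0.28, 0.00548) were called higher with anisomycin as well. Of all genes 10.8% were called higher and 9.59% lower with anisomycin than with imiquimod. Among leukocyte markers, 5 of 12 of the monocyte and macrophage list were higher and 2 lower with anisomycin than with imiquimod, as were 5 and 2 of the 12 neutrophil markers. Their part in these differences was not tested.

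**Figure D3:**
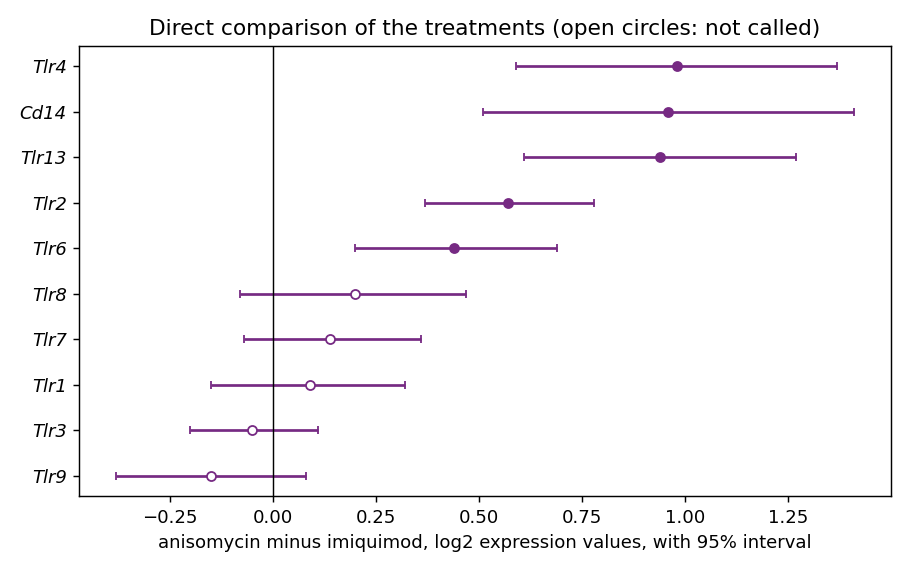
Anisomycin minus imiquimod, as a difference of log2 expression values (horizontal axis) with 95% intervals from limma over n = 3 arrays per group. The 5 filled circles, Tlr4, Cd14, Tlr13, Tlr2 and Tlr6, were called, and the intervals of the 5 open circles include 0.

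Profiles over the 9 arrays were compared after each gene was centred on its own mean, by the root mean square difference between genes, here as a description. Among the 10 genes the closest were Tlr2 and Tlr6 (0.151 on the log2 scale) and Tlr13 and Cd14 (0.191). Over all named genes, Tlr13 was itself the nearest to Cd14, followed by Plaur, the urokinase receptor gene (0.223). Tlr13 had as its nearest the tubulin gene Tubb6 (0.146), the leukocyte receptor gene Cd300lf (0.161) and Slc26a9 (0.183). Tlr1 was nearest to Pirb (0.098), an inhibitory receptor of myeloid and B cells, and to Rac2 (0.127), the GTPase of blood cells. Tlr4 was nearest to Rgs1 (0.082) and to Itgax (0.092), the integrin subunit CD11c of dendritic cells and macrophages, which was at 1.45 with anisomycin and 0.31 with imiquimod, not called with imiquimod, and was higher with anisomycin than with imiquimod (1.14, limma adjusted p = 0.0052). Tlr2 was nearest to Il17ra (0.057), the receptor of interleukin 17, Mcoln2 (0.066) and Klf7 (0.067). Tlr6 had Gpsm3 (0.062), Snx20 (0.073) and Mob3a (0.075), Tlr8 had Ippk (0.103), Olr1 (0.108) and Irx3 (0.121), and Tlr9 had Trpm2 (0.047), Epsti1 (0.075) and Celsr3 (0.083). Tlr7 (Tbc1d25, 0.051) and Tlr3 (Tmem67, 0.039) had nearest genes that hardly moved, so these small distances say little. The remaining nearest genes were Gda for Tlr1, Gcnt1 for Tlr4, Imp3 and Cd2ap for Tlr7, Spata6 and Ddrgk1 for Tlr3, and Tubb6 for Cd14 (0.224).

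Promoter sequence, as the 250 bases before an annotated start in RefSeq (GRCm38.p6), was at hand for 7 of the 10 genes, Tlr1, Tlr2, Tlr3, Tlr6, Tlr8, Tlr9 and Tlr13. These starts are not always the outermost end of the gene. The sequences of Tlr3 and Tlr6 lie wholly within the RefSeq span of the gene, and those of Tlr1 and Tlr2 at least partly. The matches printed below for Tlr1, Tlr2 and Tlr3 fall inside that span. Only the sequences of Tlr8, Tlr9 and Tlr13 abut it from outside. Below, before a gene means before such a start. Both strands were searched for the NF-kB consensus, the PU.1 core GAGGAA (a myeloid ETS factor), AP-1 (TGANTCA), an interferon response element (GAAA, 2 bases of any kind and GAAA again) and a C/EBP-like sequence (TTGCNNAA). The NF-kB consensus was found before Tlr2, which rose, and before Tlr3, which did not rise with either treatment. It occurs in 4.46% of all genes with a promoter in the table. The 2 sequences are printed 5′ to 3′ on the strand of the gene with matches in capitals, from chr3:83841609-83841858 and chr8:45410381-45410630, both on the minus strand. In Tlr2 the capitals hold overlapping matches of the palindromic site on both strands, and in Tlr3 the second stretch in capitals is a C/EBP-like match.

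Tlr2: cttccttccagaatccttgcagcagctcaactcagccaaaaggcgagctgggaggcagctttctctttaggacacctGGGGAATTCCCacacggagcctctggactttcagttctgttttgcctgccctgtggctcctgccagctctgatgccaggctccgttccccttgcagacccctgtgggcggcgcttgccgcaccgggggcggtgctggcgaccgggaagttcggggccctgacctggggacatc
Tlr3: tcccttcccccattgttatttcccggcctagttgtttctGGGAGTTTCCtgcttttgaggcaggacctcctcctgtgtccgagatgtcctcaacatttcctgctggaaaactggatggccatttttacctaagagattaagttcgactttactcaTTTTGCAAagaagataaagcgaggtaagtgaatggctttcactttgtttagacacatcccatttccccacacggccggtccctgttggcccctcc

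The PU.1 core was found before Tlr1, Tlr8, Tlr9 and Tlr13, and occurs in 25.9% of all genes. Tlr13 (chrX:106143025-106143274, plus strand), the receptor with the largest rise, and Tlr1 (chr5:64933559-64933808, minus strand, the first of its 2 starts in the table) are shown with that match in capitals, 83 and 23 bases before the start at its far end.

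Tlr13: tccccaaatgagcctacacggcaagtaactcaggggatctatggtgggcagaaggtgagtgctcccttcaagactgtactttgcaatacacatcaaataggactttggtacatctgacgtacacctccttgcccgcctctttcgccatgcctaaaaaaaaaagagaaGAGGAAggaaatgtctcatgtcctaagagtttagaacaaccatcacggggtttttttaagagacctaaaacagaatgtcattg
Tlr1: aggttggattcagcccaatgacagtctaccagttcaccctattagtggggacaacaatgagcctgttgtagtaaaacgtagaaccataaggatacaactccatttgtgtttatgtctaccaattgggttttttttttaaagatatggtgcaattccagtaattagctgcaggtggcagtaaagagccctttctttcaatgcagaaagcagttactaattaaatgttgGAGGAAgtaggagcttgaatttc

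The interferon response element was found only before Tlr6 among these 7 genes, as overlapping matches (3.46% of all genes), AP-1 only before Tlr9 (7.82%), and the C/EBP-like sequence before Tlr3, Tlr6 and Tlr8 (10.8%). A match describes letters and not a bound site.

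The other genes of Toll-like receptor signalling were taken from a list of 73, of which 64 were tested. With anisomycin 32 were higher, 10 lower and 22 not called, so that 65.6% were called, where 45.6% of all genes were called, 22.3% higher and 23.3% lower. With imiquimod 36 were higher, 6 lower and 22 not called, also 65.6%, where 42.7% of all genes were called, 20.4% higher and 22.4% lower. The median log2 difference of the list was 0.33 with anisomycin and 0.32 with imiquimod. Between the treatments 14 were higher with anisomycin, 10 lower and 40 not called, or 37.5% called, where 20.4% of all genes were called. The counts by role that follow are to be read against the same shares of all genes.

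Among the 5 surface partners, Ly96 was the one called higher with both treatments. Cd180 and Ly86, which form a related lipopolysaccharide-binding complex on leukocytes, rose with imiquimod by 0.36 and 0.55 (limma adjusted p = 0.00968 and 0.00764), and had differences of -0.07 and 0.30 with anisomycin, not called. Only for Cd180 of the pair was the difference between the treatments called (-0.43, adjusted p = 0.00995). Cd36, a scavenger receptor that assists Tlr2 with Tlr6, fell by 0.67 with anisomycin (adjusted p = 0.000538) and was at -0.11 with imiquimod, not called. The calprotectin genes S100a8 and S100a9, proposed endogenous Tlr4 ligands, rose by 5.50 and 5.01 with anisomycin and by 6.62 and 6.29 with imiquimod, and were lower with anisomycin than with imiquimod by -1.13 and -1.28 (adjusted p = 0.000409 and 0.000109). This order is the opposite of that of Tlr4. Hmgb1, another proposed ligand, fell by 0.77 with anisomycin (adjusted p = 0.00211) and was at -0.28 with imiquimod, not called.

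Of 12 genes listed as endosomal partners 8 rose with each treatment, and 2 fell with anisomycin and 1 with imiquimod. Some genes of this list also serve surface receptors, so its counts and median do not describe endosomal receptors alone. Unc93b1, which carries the nucleic acid receptors to endosomes, rose by 0.57 with anisomycin and 0.82 with imiquimod (limma adjusted p = 0.000127 and 1.85e-05), and was lower with anisomycin than with imiquimod (-0.26, adjusted p = 0.0312). Among the proteases that cut endosomal receptors into their active form, cathepsin L (Ctsl) rose by 1.75 with anisomycin and 0.55 with imiquimod, a difference of 1.20 between them (adjusted p = 0.00058), and legumain (Lgmn) rose by 1.10 with anisomycin and 0.73 with imiquimod. Cathepsin K (Ctsk), which fibroblasts and osteoclasts also make, fell, at -1.29 with anisomycin and -0.96 with imiquimod (adjusted p = 1.53e-06 and 1.13e-05). Lrrc59, an endoplasmic reticulum protein that binds Unc93b1, rose by 1.59 with anisomycin and 1.29 with imiquimod.

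Of 6 adaptors 3 rose with anisomycin and 4 with imiquimod, and none fell. Myd88, which serves nearly all of the receptors, rose by 1.39 with anisomycin and 1.32 with imiquimod (limma adjusted p = 1.03e-06 and 2.02e-06), and Pik3ap1, which links the receptors to PI3 kinase, rose by 2.15 with anisomycin and 1.77 with imiquimod. Tirap, which links Myd88 to Tlr2 and Tlr4, rose by 1.08 with anisomycin and 0.47 with imiquimod, and was higher with anisomycin (0.60, adjusted p = 0.00424). Ticam1 (TRIF), an adaptor of Tlr3 and Tlr4, was at 0.12 with anisomycin and 0.18 with imiquimod and not called in either (adjusted p = 0.183 and 0.0703). Ticam2, which links Ticam1 to Tlr4, was called with imiquimod (0.24, adjusted p = 0.00663), against 0.14 with anisomycin (0.0593). The difference between the treatments was not called for Ticam2 (adjusted p = 0.3).

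Of 14 kinase cascade genes 5 rose and 2 fell with anisomycin, and 6 rose and 2 fell with imiquimod. The ubiquitin-conjugating enzyme gene Ube2n rose by 1.10 with anisomycin and 0.91 with imiquimod. The kinase genes Irak2 and Map3k8 rose by 0.73 and 0.66 with anisomycin and by 0.25 and 0.40 with imiquimod. The ubiquitin ligase gene Traf6 rose by 0.47 with anisomycin and 0.54 with imiquimod. Irak2 was higher with anisomycin than with imiquimod (0.48, limma adjusted p = 0.0029).

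Among 8 transcription factor genes 6 rose with each treatment and 1 fell, with anisomycin. The NF-kB subunit genes Nfkb2 and Rela rose by 1.25 and 1.07 with anisomycin and by 0.32 and 0.46 with imiquimod, and both were higher with anisomycin (0.92 and 0.61, limma adjusted p = 0.000196 and 0.00105). Irf7, which drives interferon genes below Tlr7 and Tlr9, rose by 1.05 with anisomycin (adjusted p = 0.0101) and 1.75 with imiquimod (0.000618). Its imiquimod arrays were spread, at 7.43, 7.21 and 8.45 (SD 0.662, against 0.198 with anisomycin and 0.129 with vehicle). The difference between the treatments, -0.70, was not called (adjusted p = 0.108). Irf8, a factor of myeloid cells, rose by 0.68 with anisomycin and 0.56 with imiquimod.

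Inhibitors of the pathway gave 7 higher and 3 lower of 14 with each treatment. Tnfaip3 (A20), a deubiquitinase that ends NF-kB signalling, rose by 1.84 with anisomycin and 0.60 with imiquimod, and Atf3, a transcriptional repressor of Tlr4 targets that stress also induces, by 2.29 with anisomycin, against 0.51 with imiquimod, not called. Both were higher with anisomycin (1.24 and 1.77, limma adjusted p = 0.00115 and 0.000876). Irak3 blocks the kinases next to Myd88. Nfkbiz codes for a nuclear regulator of NF-kB targets, listed here by its protein family and not as a plain inhibitor. Irak3 and Nfkbiz rose by 0.87 and 1.33 with anisomycin and by 0.85 and 1.36 with imiquimod. The treatments were not called apart for either (limma adjusted p = 0.862 and 0.908). Cd300lf rose by 3.34 with anisomycin and 2.31 with imiquimod.

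**Figure D4:**
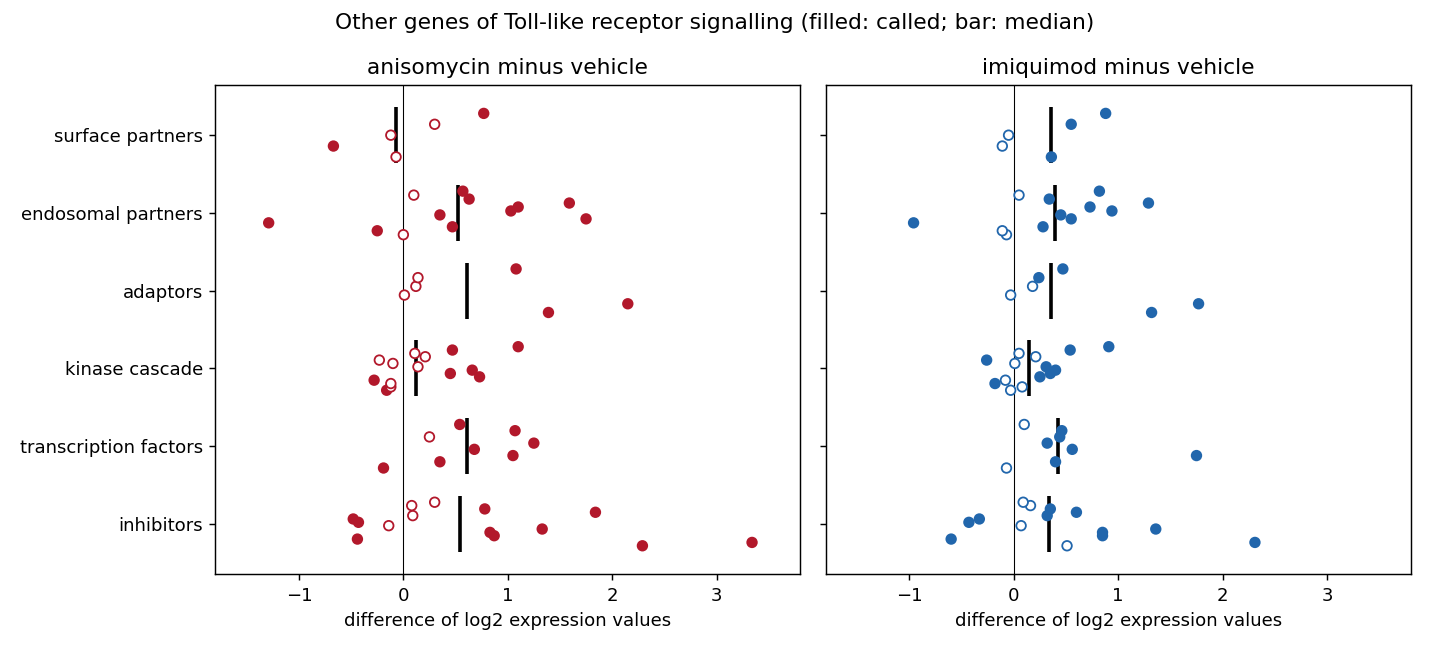
Difference of log2 expression values (horizontal axis) for genes of Toll-like receptor signalling by role, with anisomycin minus vehicle on the left and imiquimod minus vehicle on the right, 1 point per gene, filled where called, and the median as a bar. The lists of endosomal partners (some of which also serve surface receptors), adaptors, transcription factors and inhibitors have medians of 0.52, 0.61, 0.61 and 0.54 with anisomycin. With imiquimod the medians are 0.39, 0.36, 0.42 and 0.33.

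Markers of leukocytes that carry these receptors moved in the same arrays. The marker counts of this and the next paragraph are to be read against the shares of all genes called. These were 45.6% with anisomycin, 42.7% with imiquimod and 20.4% between the treatments. Of 12 monocyte and macrophage markers 9 rose and 1 fell with anisomycin, and 8 rose and 1 fell with imiquimod. Their mean log2 level per array was 8.41 to 8.53 with anisomycin and 8.25 to 8.34 with imiquimod, against 7.42 to 7.48 with vehicle. They did not move as one: Itgam rose by 2.92 with anisomycin and 2.98 with imiquimod, and Adgre1 (F4/80) by 0.63 with anisomycin and 1.56 with imiquimod. Mertk fell by 0.98 with anisomycin and by 1.34 with imiquimod, and Csf1r was at -0.01 with anisomycin and 0.11 with imiquimod, not called. Of 12 neutrophil markers 8 rose with each treatment, with mean levels of 6.86 to 7.24 with anisomycin and 6.76 to 6.92 with imiquimod, against 4.96 to 5.07 with vehicle. The chemokine receptor gene Cxcr2 rose by 4.97 with anisomycin and 4.71 with imiquimod. Mpo and Elane, granule genes of immature neutrophils, were not called with either treatment. The part of these cells in the results above was not tested.

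The 9 plasmacytoid dendritic cell markers had mean levels of 7.19 to 7.21 with anisomycin and 7.06 to 7.10 with imiquimod, against 7.20 to 7.26 with vehicle, though several of them, such as Tcf4, Ly6d and Cox6a2, are made by other skin cells too. Of the 9, 2 were called higher and 2 lower with anisomycin, and 3 higher and 3 lower with imiquimod. Siglech, the most specific of them, was at 0.09 with anisomycin, not called, and at -0.29 with imiquimod (limma adjusted p = 0.00656). The 3 higher with imiquimod were Irf8 (0.56, adjusted p = 0.000295), Ccr9 (0.54, 0.00824) and Bst2 (0.24, 0.0151). Of 7 B cell markers none was called with either treatment, and Ms4a1, Cd79a and Cr2 had means of 3.76 to 3.95 in the 3 groups, under the 3.98 that bounds the dimmest 10% of genes. No value on this scale is 0. Among 9 dendritic and Langerhans cell markers 2 rose and 2 fell with anisomycin and 4 fell with imiquimod. That is 44.4% called with each treatment, near the share of all genes. Their mean levels were 5.84 to 6.0 with anisomycin and 5.71 to 5.84 with imiquimod, against 5.93 to 6.10 with vehicle. Of 7 fibroblast markers 6 fell with each treatment, of 6 mast cell markers 4 fell with anisomycin and 6 with imiquimod, and of 6 T cell markers 2 fell with each. For T cell markers that is 33.3% called, under the share of all genes. Endothelial markers gave 1 higher and 3 lower of 7 with anisomycin and 4 lower with imiquimod, and 3 were higher with anisomycin than with imiquimod.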

How the data were processed

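Total RNA from whole ear skin had been measured on 9 arrays. The authors deposited 1 table of 35556 probe sets made with RMA (background correction, quantile normalization and summary of probes), per the submitters' processing notes, which give no version. The deposited values run from 2.39 to 13.97 and were taken as log2 on that basis. Scanner files were not used here, and no genome build is named in what was available. The annotation gives 1 symbol for 21789 rows, several for 1621 and none for 12146. Rows with 1 symbol were kept, and for the 999 genes with several probe sets the one with the highest mean, leaving 19938 genes. Of the rows with 1 symbol, 21698 were found in RefSeq by Entrez identifier, which changed 0 symbols.

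A linear model with 1 mean for each group, and no other term, was fitted to the 9 arrays together in limma (version 3.58.1, R 4.3.3; 6 residual and 3.16 prior degrees of freedom), and tested two-sided with Benjamini-Hochberg adjustment. The code was tested on simulated data. Within-array differences between genes were tested by exact permutation with scipy 1.17.1. The labels number the arrays of a group without saying that each was a separate animal, so p-values measure the spread between these arrays, which may be technical. Precision is set by having 3 arrays per group. Of the signalling genes, the text names up to 4 called ones per role by size of change in either comparison with vehicle, with Ly96, Unc93b1, Myd88, Ticam1, Irf7 and Irak3 in every case, and for each receptor gene the 3 nearest profiles, leaving out clone names and predicted loci. Marker genes named beside the counts of their lists are examples. The genes and lists were chosen with earlier results of these data known. Alternatives were other variance priors, filters, scalings, probe set rules, weighting of arrays, a replicate block, fits of 2 groups and leaving out each array.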

Additional observations from a re-analysis of the deposited data

How the results depend on the processing

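Over the 19 alternatives run for each of the 10 genes in each comparison, 537 results kept their direction and their side of the threshold, 27 lost the call, 4 gained it and 2 reversed. Cd14, Tlr1, Tlr2, Tlr9 and Tlr13 kept theirs in every comparison and alternative. The reversals were both of Tlr3 for anisomycin against imiquimod, never called: -0.05 became 0.02 with array weights, and leaving out single arrays gave -0.09 to 0.01. The causes were not tested. The number of the 10 genes called ranged from 8 to 10 for anisomycin, 7 to 9 for imiquimod and 4 to 7 between the treatments. Over the same settings the share of all genes called ran from 37.3% to 60.9%, 32.7% to 57.3% and 12.7% to 42.9%. With array weights the signalling genes called between the treatments numbered 38 in place of 24, and 42.9% of all genes were called there in place of 20.4%. That share was 13% when every row was tested and 12.7% to 23.9% when single arrays were left out, lowest without imiquimod replicate 1 (12.7%), and with anisomycin replicate 2 or imiquimod replicate 2 left out it was 12.8%, with imiquimod replicate 3 12.9% and with anisomycin replicate 1 13%. With arrays centred on 1000 stable genes the 10 genes gave 8 higher and 1 lower with anisomycin, and 7 higher and 1 lower with imiquimod. Of all genes 51% and 48.4% were called at that setting.

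For arrays with the same replicate number, deviations from the group means had correlations of -0.20 to 0.20. Deviations from means of 3 arrays cannot settle whether the numbers pair the samples, and the labels name no pairing. With a replicate block 10, 7 and 5 of the 10 genes were called for anisomycin, imiquimod and between the treatments, the one loss being Tlr3 with imiquimod (-0.19, limma adjusted p = 0.075). The shares of all genes called with that block were 44.8%, 41.5% and 18.7%. Signal over background was not tested, and the 3 arrays per group limit what small differences, such as those of Tlr7 and Tlr3, can show.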

Other observations

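Anisomycin replicate 3 was the lowest of its group for 7 of the 10 genes and replicate 1 for 3, while the highest was replicate 1 for 5 and replicate 2 for 5. The count of 3 includes Tlr9, where replicates 1 and 3 tied at 7.16 as rounded. Imiquimod replicate 3 was the highest of its group for 10 of 10, and replicate 2 the lowest for 7. The same counts over all genes were not computed. The median SD of the 10 genes was 0.204 in the anisomycin group, 0.084 in the imiquimod group and 0.116 in the vehicle group, where the median over all genes was 0.078, 0.059 and 0.098. These values are descriptions, and the genes are not independent of each other within an array.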
